A study of Mus musculus with 8 samples.

Results

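The HOX genes of the 4 mammalian clusters and their MEIS and PBX cofactors were described in haematopoietic stem cells (HSCs) of young and old mice. Every row of the gene table whose symbol begins with Hoxa, Hoxb, Hoxc or Hoxd was taken, with Meis1, Meis2, Meis3, Pbx2, Pbx3 and Pbx4. That gave 27 of 19909 genes, of which 23 code for proteins and 4 are antisense transcripts. HOXA gave 8 of its 11 annotated coding genes (Hoxa2 to Hoxa7, Hoxa9 and Hoxa10), HOXB 8 of 10 (Hoxb2 to Hoxb9), HOXC 1 of 9 (Hoxc6) and HOXD 0 of 9, with all 3 Meis genes. The other 22 of the 39 coding HOX genes are not analysed here. The lowest mean in the table was 5.93 normalized counts, so a member had a row only above about that level.

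All mice were homozygous for the GFP-LC3 reporter (genotype Gfplc3/Gfplc3, bone marrow, steady state). The reporter joins green fluorescent protein (GFP) to LC3, which coats autophagosomes and is broken down with their content. The 2 young libraries came from unfractionated HSCs of 2 mice aged 8 to 12 weeks. The 6 old libraries came from 3 mice aged over 24 months, and each mouse gave a low-GFP fraction (AThi, autophagy-high, the dimmest 33% of HSCs, n = 3) and a high-GFP fraction (ATlo, autophagy-low, the brightest 33%, n = 3). The young cells were not gated on GFP, so in a comparison with young, age and the GFP gate cannot be told apart. Libraries are named here by their column tags, which are D11 and D12 in the young group and O10, O11 and O12 in each old fraction.

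HOX genes lie in 4 clusters, each a row of related genes that are switched on in the embryo in the order of their position along the chromosome, with low-numbered genes at one end and high-numbered genes at the other. Their proteins bind DNA through a homeodomain and gain specificity by binding together with PBX and MEIS proteins, homeodomain proteins of the TALE class. In blood, HOXA9, MEIS1 and PBX proteins are best known from stem cells and from acute leukaemia, and HOXB4 from the expansion of HSCs in culture.

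All 12 of 12 HSC genes looked up were measured, among them Hlf at 24927 to 43818 and Procr at 2000.3 to 4834 normalized counts over the 8 libraries. The quasi-likelihood test of edgeR called Procr and Hlf in AThi against ATlo, beside 1.41% of all genes. It called Slamf1 in AThi against young and 0 of the 12 in ATlo against young, beside 1.21% and 0.653%. Library depth was 33960216 to 61341946 reads. The 3 libraries tagged 12 (young D12, AThi O12 and ATlo O12) stood apart: the summed level of 7 measured B cell markers of 10 looked up was 10438 to 24390 normalized counts there and 664 to 995 elsewhere. Of the defining ones, Cd79a was at 465, 915 and 496 normalized counts in those 3 libraries and at 0 to 15.7 in the others. Xist, the RNA of the inactive X chromosome, was at 97743 normalized counts in young D11. It was at 3869, 5810 and 2747 in young D12, AThi O12 and ATlo O12, and at 32.5 to 171 elsewhere. Young D11 was thus far above every old library in Xist, so the sex of the mice may differ between young and old. In a comparison with young, such a difference cannot be told apart from age and the GFP gate, and its part in the results was not tested. Summed megakaryocyte and platelet markers (8 of 9 measured) were at 3379 and 4066 in young and at 9105 to 13684 in old libraries, so the sum moved with the old against young comparison. Vwf was its largest part, at 1334 and 1451 in young and 4138 to 6480 in old. Itga2b and Gp1bb were also higher in every old library, while Pf4, Ppbp, Gp9, Gp5 and Treml1 overlapped between young and old. Summed T and NK cell markers (4 of 10 measured) were at 2121 to 3172 in AThi, 1403 to 1598 in ATlo and 1192 to 1326 in young. Klrb1c alone was called, higher in all 3 comparisons of the authors' deposited table, at 1284 to 2730 in AThi and 721 to 950 in ATlo. Cd4 and Lck overlapped between the fractions, and Nkg7 was lower in AThi (243 to 392) than in ATlo (394 to 533). The Cd3, Cd8a and Trbc genes looked up had no row. Erythroid markers (9 of 10) were at 25926 to 32707 in AThi, 34468 to 41466 in ATlo and 28728 to 33492 in young. Most of that sum was Car2, at 23965 to 32381 in AThi and 30280 to 40295 in ATlo. Endothelial markers (6 of 8) were at 5313 to 7557 in old and at 7870 and 14607 in young. Of the 14607 in young D12, 10119 were Tek. Granulocyte and monocyte markers (10 of 12) were at 13111 to 16346 in old and 12495 and 13093 in young. Stromal markers (4 of 12) overlapped between the groups. The part of these markers in the results was not tested. In bulk RNA, fewer cells of a type and less RNA per cell cannot be told apart.

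The HOXB genes that passed the test lay among Hoxb6 to Hoxb9, the 5' part of those measured, and were higher in old HSCs. Hoxb7 and Hoxb8 rose in both old fractions against young, Hoxb6 and Hoxb9 rose in AThi, and each of the 8 HOXB genes had a positive fold change in both comparisons. Of those signs, that of Hoxb4 in AThi turned without AThi O11 (log2 fold change -0.05) and that of Hoxb9 in ATlo without the libraries tagged 12 (-0.05). The cofactor gene Pbx3 rose in both fractions, by about 3.10 times in AThi and 3.02 times in ATlo. Hoxa3 fell in ATlo, and no other HOXA gene passed the test. Between the old fractions, 1 coding member, Hoxb9, was higher in AThi. These calls are those of the authors' deposited table (DESeq2 Wald test, Benjamini-Hochberg adjusted p below 0.05 over all genes). The quasi-likelihood test of edgeR on the same reads was stricter, and of all 27 members it called Pbx3 alone, in both comparisons with young.

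Counted over the coding members, 5 of 23 were higher and 0 lower in AThi against young, where the authors' deposited table called 3.13% of all tested genes higher and 1.91% lower. In ATlo against young, 3 were higher and 1 lower, beside 2.37% and 1.98% of all genes, and Hoxc6 had no adjusted p. In AThi against ATlo, 1 was higher and 0 lower, beside 3.47% and 4.43%, again with no adjusted p for Hoxc6. With edgeR the share of all genes called in either direction was 1.21%, 0.653% and 1.41% in the same order of comparisons. The median log2 fold change of the 23 was 0.31 in AThi against young, -0.06 in ATlo against young and 0.39 in AThi against ATlo, beside -0.00074, 0.0061 and 0.03 over all genes. The comparisons with young use the same 2 young libraries, so their values are given side by side and are not independent.

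**Figure D1:**
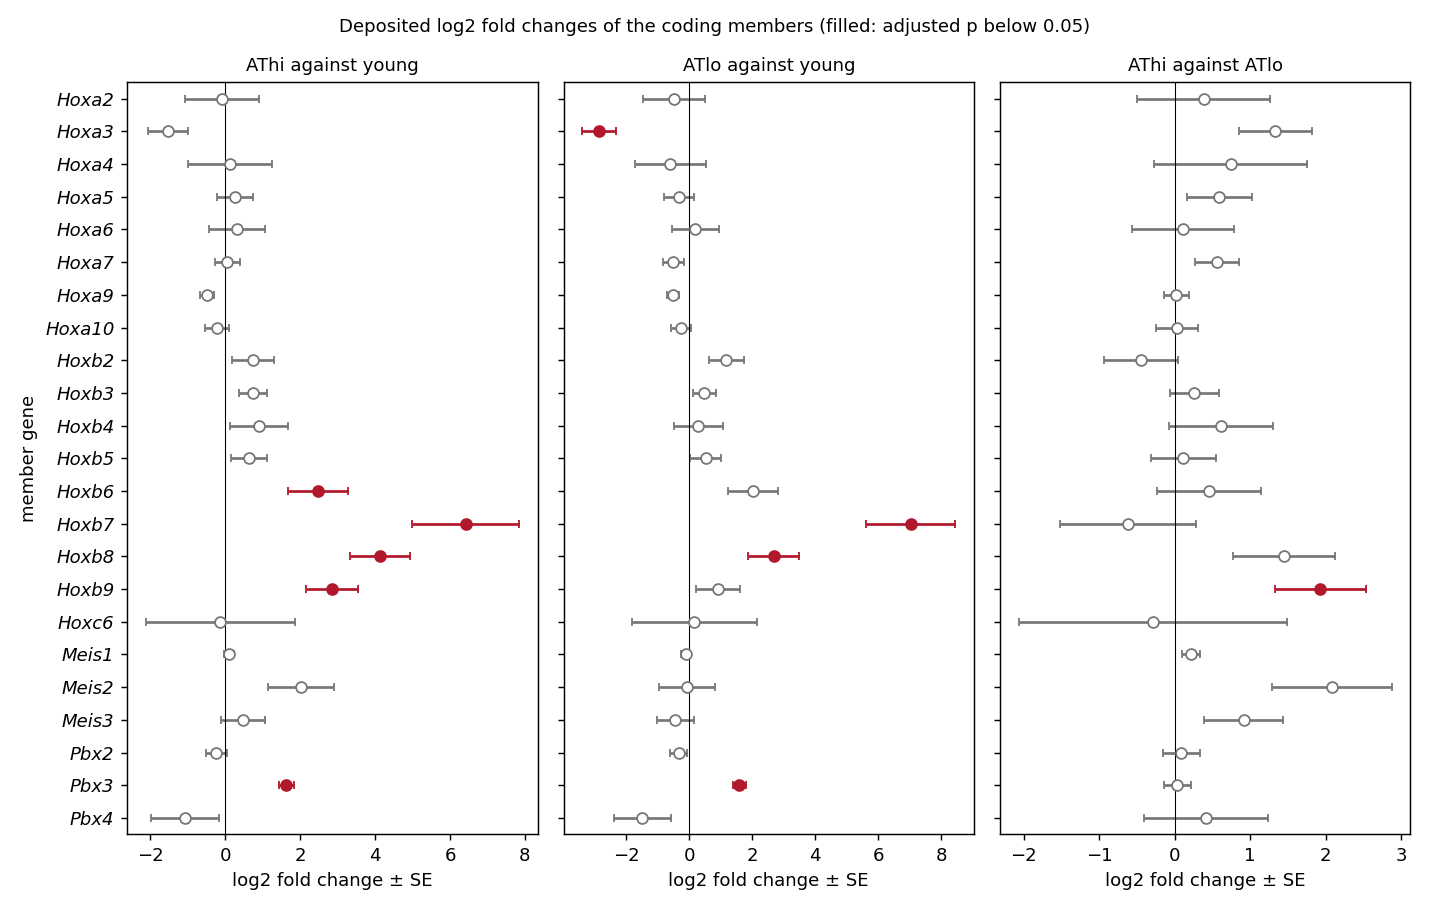
Log2 fold changes with standard errors from the authors' deposited table for the 23 coding members (rows) in the 3 comparisons (panels, each with its own horizontal scale); filled red points have an adjusted p below 0.05. The filled points of the first panel are Hoxb6 to Hoxb9 and Pbx3, those of the second include Hoxa3 on the negative side, and the third has Hoxb9 alone.

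HOXB lies on chromosome 11 with all its genes on the plus strand, Hoxb9 first (chr11:96271457-96276595, GRCm38) and Hoxb2 last (chr11:96350525-96354012). Hoxb7 (chr11:96286623-96290162), which lies between Hoxb8 and Hoxb6, was at 2.08 and 0 normalized counts in young D11 and D12. It was at 14.6, 162 and 90.0 in AThi O10, O11 and O12 and at 263, 87.3 and 59.1 in the same order in ATlo. All 6 old libraries were above both young ones, and the old values spread widely within each fraction. The log2 fold change of Hoxb7 in the authors' deposited table was 6.41 ± 1.43 (SE, adjusted p = 0.00045) in AThi and 7.03 ± 1.43 (adjusted p = 9.1e-05) in ATlo. The young level rests on 2 and 0 reads, and the log2 ratio of depth-scaled reads had a 95% interval of 4.64 to 9.56 in AThi and 5.17 to 10.07 in ATlo, which covers counting error only. Hoxb7 remained called in DESeq2 refits without any one of the 8 libraries, and edgeR gave an adjusted p of 0.11 in both comparisons.

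Hoxb8 (chr11:96281905-96285315), a regulator best known in blood for holding myeloid progenitors immature when overexpressed, was at 8.31 and 19.0 normalized counts in young D11 and D12. AThi O10, O11 and O12 were at 436, 87.0 and 193 normalized counts, and ATlo O10, O11 and O12 at 76.2, 138 and 48.2. Every old library was above both young libraries, and the fractions overlapped each other. The authors' deposited table gave a log2 fold change of 4.13 ± 0.80 (adjusted p = 2.2e-05) in AThi and 2.68 ± 0.80 (adjusted p = 0.025) in ATlo against young. Refitted with DESeq2, the ATlo call was lost without young D11 (adjusted p = 0.34) and without ATlo O11 (adjusted p = 0.16), while the AThi call held without any single library. By edgeR the adjusted p was 0.076 for AThi and 0.25 for ATlo.

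The 250 bases before the start of Hoxb8 (chr11:96281655-96281904, plus strand, RefSeq, GRCm38.p6) are shown because Hoxb8 is the one called HOXB gene with a promoter entry, beside those of Hoxb4 (chr11:96318017-96318266, plus strand), which did not pass the test. Both strands were searched for TGATNNAT (a HOX with PBX motif), TGACAG (MEIS), TTTATNG (caudal) and CGCGCG (a run of CpG), and capitals mark matches, none of which overlap.
Hoxb8: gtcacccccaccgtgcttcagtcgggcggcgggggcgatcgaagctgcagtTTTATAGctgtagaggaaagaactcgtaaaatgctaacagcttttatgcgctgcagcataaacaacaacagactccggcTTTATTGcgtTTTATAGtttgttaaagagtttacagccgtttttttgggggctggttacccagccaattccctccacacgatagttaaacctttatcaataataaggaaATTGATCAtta
Hoxb4: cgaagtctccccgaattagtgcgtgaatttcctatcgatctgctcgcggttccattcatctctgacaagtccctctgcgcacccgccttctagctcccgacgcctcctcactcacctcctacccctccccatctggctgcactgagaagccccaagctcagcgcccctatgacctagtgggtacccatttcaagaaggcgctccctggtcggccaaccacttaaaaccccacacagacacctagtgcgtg
The Hoxb8 window holds 1 TGATNNAT match, on the minus strand beginning 11 bases before the start, and 3 TTTATNG matches, while the Hoxb4 window holds none of the 4 motifs. GC content was 44.4% in the first and 58% in the second. Of 32851 promoter windows of this length, 7.68% hold TGATNNAT, 15.9% TGACAG, 9.81% TTTATNG and 9.17% CGCGCG. A match is a stretch of letters and not a measured binding site. Promoter entries matched 15 of the 27 members, and outside Hoxb8 a TGATNNAT match was found in the window of Hoxa2 only.

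Hoxb9 (chr11:96271457-96276595), the most 5' HOXB member in the table, was at 49.9 and 10.6 normalized counts in young D11 and D12. It was at 190.3, 218 and 243 in AThi O10, O11 and O12, and at 62.9, 33.3 and 74.6 in ATlo. All 3 AThi libraries were above every ATlo and young library, and ATlo overlapped young. Of the 6 endothelial markers measured, Kdr alone was called between the fractions. By the authors' deposited table it was higher in AThi (log2 fold change 1.61 ± 0.36, adjusted p = 0.00041), while the endothelial sum overlapped between the fractions. The T and NK sum given above was also higher in AThi, by way of Klrb1c, and the erythroid sum was lower. The part of these markers in the Hoxb9 result was not tested. The young mean was 30.2 ± 27.8 (SD, n = 2), the ATlo mean 56.9 ± 21.3 and the AThi mean 217 ± 26.2 (SD, n = 3 each). Hoxb9 had, in the authors' deposited table, a log2 fold change of 1.93 ± 0.60 (adjusted p = 0.023) in AThi against ATlo, 2.84 ± 0.69 (adjusted p = 0.0019) in AThi against young and 0.91 ± 0.69 (adjusted p = 0.62) in ATlo against young.

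Within each tag, Hoxb9 was higher in AThi than in ATlo by 1.58, 2.67 and 1.69 on the log2 scale for O10, O11 and O12. With the tag as a replicate block, DESeq2 gave 1.99 (adjusted p = 0.0053) and edgeR 1.98 (adjusted p = 0.1). Without the block, edgeR gave an adjusted p of 0.16. The AThi against ATlo call was lost in DESeq2 refits without AThi O10, O11 or O12 (adjusted p = 0.075, 0.11 and 0.12), without ATlo O10 or O11 (adjusted p = 0.056 and 0.12), and without the libraries tagged 12 (adjusted p = 0.11), with log2 fold changes between 1.66 and 2.18 over the refits that leave out 1 library. The AThi against young call was lost without young D12 (2.12, adjusted p = 0.074) and without the libraries tagged 12 (2.04, adjusted p = 0.37), and by edgeR (adjusted p = 0.13). The difference was 4.36 without young D11.

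Hoxb6 (chr11:96292476-96301569) was at 48.8 and 8.45 normalized counts in young D11 and D12. AThi O10, O11 and O12 were close together at 171, 163 and 144 normalized counts, and ATlo O10, O11 and O12 were at 51.9, 92.9 and 204. Every old library was above both young ones, ATlo O10 only narrowly. The log2 fold change in the authors' deposited table was 2.48 ± 0.79 (adjusted p = 0.038) in AThi and 2.02 ± 0.79 (adjusted p = 0.14) in ATlo against young. The AThi call was lost in refits without young D12 (1.71, adjusted p = 0.41), AThi O10 (adjusted p = 0.13), AThi O11 (adjusted p = 0.12) or AThi O12 (adjusted p = 0.078), without the libraries tagged 12 (adjusted p = 0.52), and by edgeR (adjusted p = 0.26). Without young D11 it was 4.24, and in that refit the ATlo difference was called too.

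Hoxb2 to Hoxb5, the 3' genes, did not pass the test in either comparison with young. Hoxb5 (chr11:96303336-96306121), a marker of long-term HSCs, was at 162 and 239.7 normalized counts in young, at 304, 425 and 205 in AThi and at 287, 165 and 412 in ATlo, and the 3 groups overlapped. Its fold changes on the log2 scale were, by the authors' deposited table, 0.63 ± 0.49 (adjusted p = 0.68) and 0.52 ± 0.48 (adjusted p = 0.72) in AThi and ATlo against young. Hoxb4 was at 88.3 and 102 in young, at 35.1, 348 and 149 in AThi and at 114, 79.4 and 155 in ATlo, so AThi held both its lowest and its highest value. For Hoxb4 the authors' deposited table gave log2 fold changes of 0.90 ± 0.78 (adjusted p = 0.74) in AThi and 0.28 ± 0.78 (adjusted p = 0.94) in ATlo against young.

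Hoxb3 was at 166 and 125 normalized counts in young and at 174 to 281 in the 6 old libraries, all above young, with adjusted p of 0.33 (AThi) and 0.63 (ATlo) in the authors' deposited table. Hoxb2 was at 64.4 and 40.1 in young and at 60.0 to 132 in old. Of the exon bases of Hoxb3, 52.9% are shared with the antisense gene Hoxb3os, and of those of Hoxb2 27.3%. The sources used here give no strand setting for the counting, so reads of such pairs may not be told apart. Hoxb4 and Hoxb6 to Hoxb9 share no exon base with another gene that has a row, and genes without a row were not compared.

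**Figure D2:**
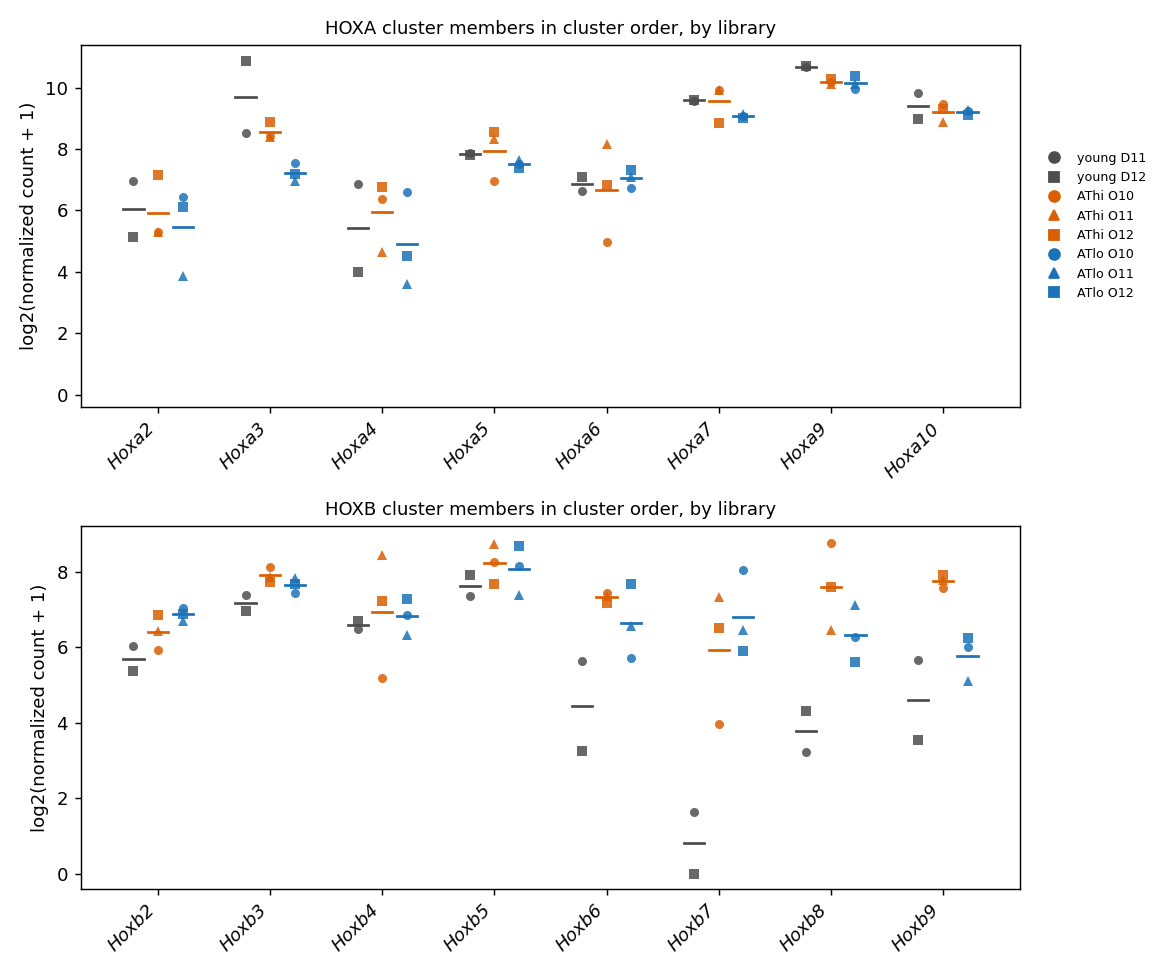
Levels of the HOXA (top) and HOXB (bottom) coding members in each library, as log2(normalized count + 1), genes in cluster order from low to high number; points are libraries (colour gives the group, shape the tag) and short lines are group means on that scale. Young points of Hoxb6 to Hoxb9 lie below nearly all old points, Hoxb7 reaching 0 in young D12, while among HOXA genes all old points of Hoxa9, and the ATlo points of Hoxa3, Hoxa5 and Hoxa7, lie below both young points.

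Summed over Hoxb6 to Hoxb9, a split drawn after the values were seen, the level was 109 and 38.0 normalized counts in young D11 and D12, 812, 629.8 and 669.6 in AThi O10, O11 and O12, and 454, 352 and 386 in ATlo. The 3 groups did not overlap in this sum. These 4 genes made up 18.5% and 6.98% of the HOXB total in young, then 54.4%, 36.6% and 49.6% in AThi and 39.1%, 38.0% and 30.3% in ATlo. Hoxb2 to Hoxb5 together were at 481 and 507 in young, with 681, 1089 and 681 in AThi, and with 706, 575 and 888 in ATlo. Sums of normalized counts weigh long and abundant genes more, and no test was made on them.

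HOXA lies on chromosome 6 on the minus strand. Hoxa9, Hoxa7 and Hoxa10 were its most abundant genes, while Hoxa2 and Hoxa4 were below every HOXB gene in mean normalized count. Summed over its 8 members, HOXA was at 4238 and 5198 normalized counts in young, while AThi had 3453, 3538 and 3545 and ATlo 2801, 2787 and 2949. The order young, AThi, ATlo, from high to low, had no overlap between groups, and without Hoxa3 it was kept, at 3873 and 3341, then 3110.5, 3204 and 3072, then 2613, 2664 and 2803. HOXB was at 590.1 and 545 in young, with 1493, 1719 and 1351 in AThi and 1160.5, 926 and 1274 in ATlo. Between the fractions both sums were thus higher in all 3 AThi libraries than in all 3 ATlo libraries, while against young the HOXA sum was lower and the HOXB sum higher in every old library, and the difference between clusters was not tested. All 8 HOXA genes had, in the authors' deposited table, a positive log2 fold change in AThi against ATlo, from 0.02 to 1.33, and none was called. With limma 7 of the 8 were positive, and with 1 library left out 5 to 8, the 5 being without AThi O12.

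**Figure D3:**
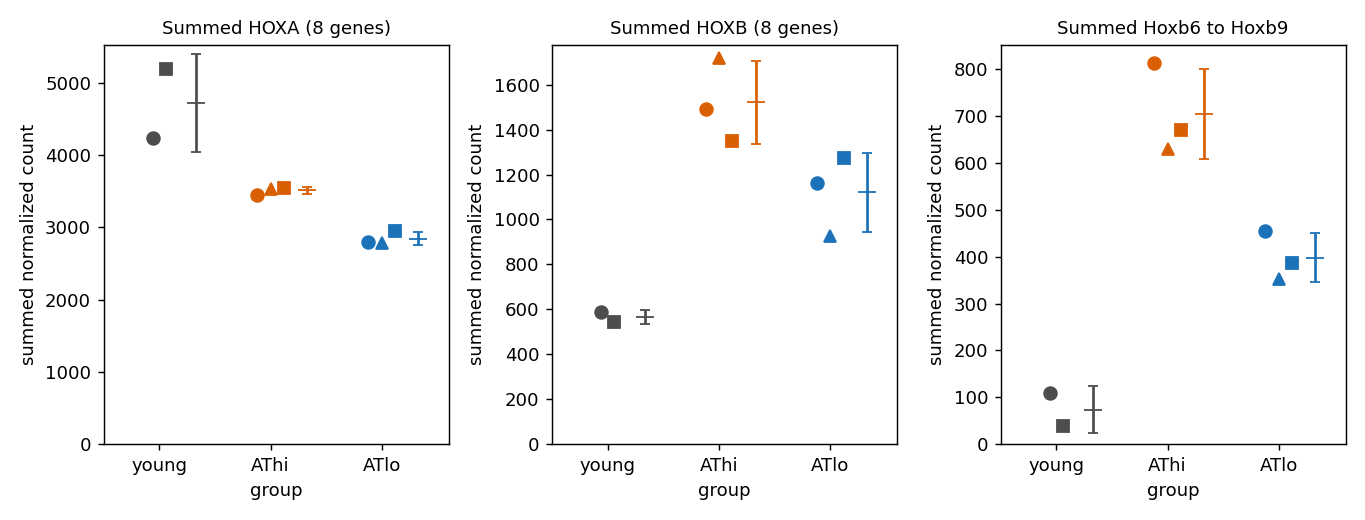
Summed normalized counts (vertical axes from 0) of the 8 HOXA genes, the 8 HOXB genes and Hoxb6 to Hoxb9 in each library by group; points are libraries (circles D11 and O10, triangles O11, squares D12 and O12), and the bars beside them are the mean ± SD (n = 2 young, 3 AThi, 3 ATlo). The HOXA sum is highest in young and lowest in ATlo, and both HOXB sums are lowest in young.

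Hoxa9 (chr6:52223100-52231089), the HOXA gene with the highest mean and a driver of acute myeloid leukaemia when overexpressed with MEIS1, was at 1629 and 1662 normalized counts in young D11 and D12. It was at 1165, 1101 and 1233 in AThi and at 1004, 1122 and 1318 in ATlo, all 6 below both young libraries. By the authors' deposited table Hoxa9 differed by a log2 fold change of -0.50 ± 0.18 (adjusted p = 0.1) in AThi and -0.52 ± 0.18 (adjusted p = 0.084) in ATlo against young, and 0.02 ± 0.17 (adjusted p = 0.97) between the fractions. It passed the test in ATlo against young in 1 refit, that without ATlo O12. Hoxa10, its 5' neighbour, was at 914 and 498 in young and at 472 to 703 in old libraries, and overlapped.

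Hoxa3 (chr6:52169062-52213336), an anterior HOX gene known from pharyngeal organs such as the thymus, was at 366 normalized counts in young D11 and at 1856 in D12. It was at 343, 334 and 473 in AThi O10, O11 and O12 and at 188, 122 and 146 in ATlo. Every ATlo library was below every AThi and young library, AThi overlapped young D11, and young D12 stood far above all others. By the authors' deposited table the log2 fold change of Hoxa3 was -2.87 ± 0.53 (adjusted p = 1.1e-05) in ATlo against young, -1.54 ± 0.53 (adjusted p = 0.069) in AThi against young and 1.33 ± 0.48 (adjusted p = 0.063) in AThi against ATlo.

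The fall of Hoxa3 in ATlo rested on young D12, which also stood apart in Tek, a receptor kinase that HSCs also express. Tek was at 10119 normalized counts there and at 2227 to 3137 elsewhere. The endothelial sum, which includes Tek, was 14607 there and 5313 to 7870 in the other 7 libraries. In young D12 the remaining measured endothelial markers (Kdr, Emcn, Flt4, Tie1 and Egfl7) lay within the range of the other libraries. Tek (-1.30 ± 0.36, adjusted p = 0.012) and Emcn (-1.69 ± 0.33, adjusted p = 3.5e-05) were lower in ATlo against young in the authors' deposited table, and their part in the Hoxa3 result was not tested. Without young D12 the Hoxa3 log2 fold change was -1.26 (adjusted p = 0.15), and without the libraries tagged 12 it was -1.23 (adjusted p = 0.45). By edgeR the adjusted p was 0.071. In AThi against young it was called without young D11, and it was -0.11 without the libraries tagged 12. In AThi against ATlo, Hoxa3 was higher in AThi by 0.86, 1.44 and 1.69 on the log2 scale within tags O10, O11 and O12. With the tag as a replicate block DESeq2 called it (1.33, adjusted p = 0.011) and edgeR did not (1.32, adjusted p = 0.11). It was also called without young D11 or without young D12. Of its exon bases, 27.1% are shared with other annotated genes, Hoxaas2 and Hoxaas3 among them.

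The other HOXA genes were not called in the authors' deposited table. Hoxa7 was at 758 and 776 normalized counts in young, while AThi had 969, 965 and 460.3 and ATlo 539, 564 and 519, with 20.4% of its exon bases shared with Hoxaas3, and it was called in AThi against ATlo in the refit without AThi O12. Hoxa5 was at 235 and 222 in young, with 123, 318 and 376 in AThi and 180, 198 and 166 in ATlo. As for Hoxa7, all 3 ATlo libraries were below both young ones while AThi spanned them. Hoxa6 was at 97.6 and 134 in young and 30.7 to 285 in old. Hoxa4 was at 116 and 14.8 in young and 11.1 to 109 in old, and Hoxa2, the most 3' of them, at 123 and 33.8 in young and 13.5 to 142 in old. Hoxc6 (chr15:102998257-103011881), the one HOXC gene in the table, was at 14.5 and 13.7 in young, with 0, 15.4 and 23.0 in AThi and 0, 28.6 and 18.7 in ATlo. It was listed at 0 in both O10 libraries.

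Across the coding members, 5 of 23 had all 6 old libraries above both young ones (Hoxb3, Hoxb6, Hoxb7, Hoxb8 and Pbx3), beside 6.07% of all genes, and 1 had all 6 below (Hoxa9), beside 4.79%. Taken by fraction, all 3 AThi libraries were above both young ones in 6 of 23 (Hoxb9 added) and below in 1 (Hoxa9), beside 13.7% and 14% of all genes. All 3 ATlo libraries were above both young ones in 6 of 23 (Hoxb2 added to the 5) and below in 5 (Hoxa3, Hoxa5, Hoxa7, Hoxa9 and Pbx4), beside 15.7% and 15.1%. Between the fractions, 2 of 23 had all 3 AThi libraries above all 3 ATlo libraries (Hoxa3 and Hoxb9), beside 10.3% of all genes, and 0 had them below, beside 10.9%.

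The PBX genes encode the TALE partners that HOX proteins contact through a short peptide ahead of the homeodomain. Pbx3 (chr2:34171457-34373142) was at 778 and 973 normalized counts in young D11 and D12. It was at 2847, 2834 and 2447 in AThi O10, O11 and O12 and at 3099, 2103 and 2720.2 in ATlo. Every old library was above both young ones, and the fractions overlapped. The log2 fold change in the authors' deposited table was 1.63 ± 0.21 (adjusted p = 1.2e-12) in AThi and 1.59 ± 0.21 (adjusted p = 6.5e-12) in ATlo against young, and 0.04 ± 0.18 (adjusted p = 0.95) between fractions. The calls against young remained in all 16 alternatives of each comparison, edgeR and the refit without the libraries tagged 12 (1.87 and 1.75) included.

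Pbx2 and Pbx4 did not pass the test in any comparison. Pbx2 (chr17:34591266-34597400) was at 1288 and 1722 normalized counts in young, while AThi had 861, 1486 and 1467 and ATlo 1172, 1048 and 1364. Pbx4 (chr8:69832491-69872292) was at 61.3 and 112 in young, with 61.5, 30.8 and 31.4 in AThi and 7.86, 31.8 and 52.9 in ATlo. Against young, the authors' deposited table gave them log2 fold changes of -0.24 ± 0.28 and -0.33 ± 0.27 for Pbx2 and -1.08 ± 0.91 and -1.49 ± 0.91 for Pbx4, in AThi and ATlo in turn.

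MEIS proteins bind DNA beside PBX and keep it in the nucleus. Meis1 (chr11:18879817-19018985) was at 14666 and 13352 normalized counts in young, while AThi had 15467, 13398 and 16388 and ATlo 12686, 12113 and 14021. The groups overlapped, and in the authors' deposited table the log2 fold change was 0.11 ± 0.13 (adjusted p = 0.86) and -0.11 ± 0.13 (adjusted p = 0.81) against young and 0.22 ± 0.12 (adjusted p = 0.29) between fractions. AThi exceeded ATlo of the same tag by 0.29, 0.15 and 0.22 on the log2 scale.

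Meis2 (chr2:115863064-116065839) was at 97.6 and 31.7 normalized counts in young, 518, 68.3 and 201 in AThi O10, O11 and O12 and 109, 57.2 and 19.4 in ATlo. AThi was above ATlo within each tag, by 2.24, 0.25 and 3.30 on the log2 scale, with overlap between the groups. In the authors' deposited table the log2 fold change between fractions was 2.08 ± 0.79 (adjusted p = 0.085). With the replicate block DESeq2 called it (1.97, adjusted p = 0.018) and edgeR did not (1.95, adjusted p = 0.22), and it was also called without AThi O11 or without ATlo O10. Meis3 (chr7:16175090-16186504) was at 192 and 122 in young, with 300.1, 271 and 83.7 in AThi and 108, 93.7 and 145 in ATlo. Its log2 fold change between fractions was 0.91 ± 0.53 (adjusted p = 0.34) in the authors' deposited table, and it was called without AThi O12.

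**Figure D4:**
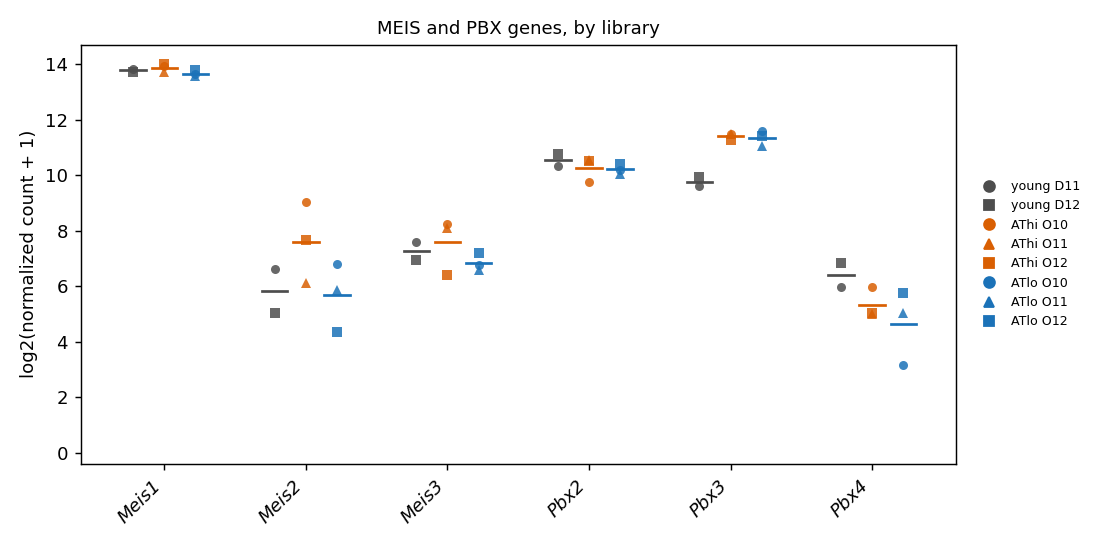
Levels of the MEIS and PBX genes in each library as log2(normalized count + 1); points are libraries (colour gives the group, shape the tag) and short lines are group means on that scale. Pbx3 lies higher in all 6 old libraries than in both young ones, and the Meis1 points lie within a narrow band.

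Scaled by exon length, as normalized counts per kilobase averaged over the 8 libraries, Meis1 was highest of these 27 members at 1330.4 (range over libraries 1150.1 to 1556). Pbx3 (364, range 127 to 507) and Pbx2 (357, range 236 to 473) followed, and the order of their means differed between the young group and the 2 old fractions. In young, Pbx2 was at a mean of 414 per kilobase and Pbx3 at 143, while in AThi they were at 349 and 444 and in ATlo at 328 and 432. Hoxa7 (241), Hoxa9 (229) and Hoxa10 (191) were the highest HOX genes per kilobase, with ranges of 160.1 to 337, 180 to 298 and 144 to 280 that overlap. Hoxb5 was the highest HOXB gene at 98.7 (range 58.2 to 153). Hoxb6 to Hoxb9 were at 42.8 to 56.3 per kilobase on this average, and Hoxc6 was lowest at 5.91.

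The antisense members were described apart, and 0 of 4 were called in any comparison of the authors' deposited table. Hoxaas3 (chr6:52175217-52215076) was at 347 and 291 normalized counts in young, while AThi had 256, 422 and 507 and ATlo 223, 206 and 187. All 3 AThi libraries were above all 3 ATlo libraries, with a log2 fold change of 0.95 ± 0.33 (adjusted p = 0.051) in the authors' deposited table, and it was called with TMM factors and without AThi O10. Hoxb3os (chr11:96343072-96354691) was at 213 and 155 in young and at 236 to 307 in the 6 old libraries, all above young, while 76.2% of its exon bases are shared with Hoxb2 and Hoxb3. At an unadjusted p below 0.05 in the authors' deposited table, Hoxaas3 passed between the fractions and Hoxb3os in ATlo against young, and edgeR called 0 antisense members. Hoxaas2 was at 45.1 to 177 and Hoxb5os at 10.2 to 103 over the 8 libraries, with overlap between young and old. Of 13 further non-coding transcripts looked up in the clusters by name, Hotairm1 alone had a row, and its values were 46.7 and 15.8 in young and 4.76 to 29.5 in old. By position, 6 further rows lay within the clusters: 3 antisense genes (Gm15050, Gm29430 and Gm11536, at 3.18 to 116 normalized counts), the coding models Gm28308 and 5730596B20Rik, and the pseudogene Gm11539, and 0 were called in the authors' deposited table.

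**Figure D5:**
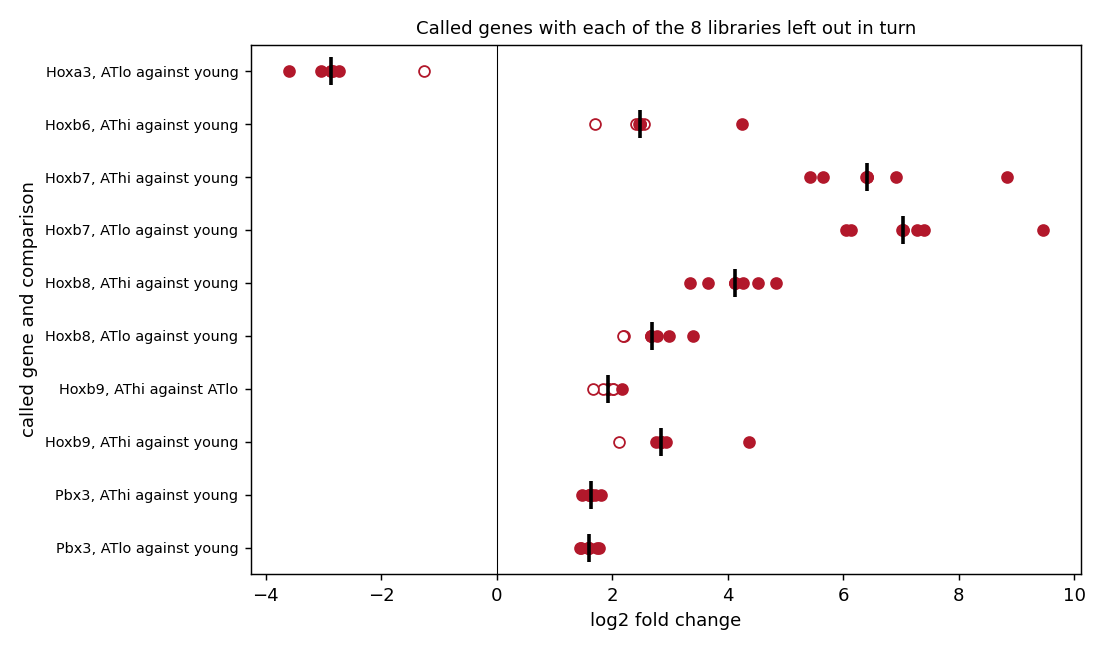
Log2 fold changes of each called member and comparison when 1 of the 8 libraries is left out and DESeq2 is refitted; filled points kept an adjusted p below 0.05, open points did not, and black ticks mark the value with all 8 libraries. Pbx3 and Hoxb7 keep filled points throughout, and the open point of Hoxa3 at -1.26 is the refit without young D12.

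HOX transcription is kept on by the MLL (KMT2A), menin and DOT1L machinery and kept off by Polycomb complexes. Of 22 MLL, menin and DOT1L genes, all measured, 3 were higher (Mllt3, Aff4 and Aff1) and 1 lower (Dot1l, the H3K79 methyltransferase) in AThi against ATlo in the authors' deposited table, beside 3.47% and 4.43% of all genes. Mllt3, a reader in the super elongation and DOT1L complexes, had a log2 fold change of 0.66 ± 0.15 (adjusted p = 4e-04) and Dot1l one of -0.80 ± 0.19 (adjusted p = 0.0014) there in the authors' deposited table. Aff4 and Aff1, of the super elongation complex, were at 0.49 ± 0.12 (adjusted p = 0.003) and 0.48 ± 0.16 (adjusted p = 0.041) in the authors' deposited table. Against young, 0 were higher and 1 lower in each fraction: Psip1 in AThi (-0.35 ± 0.11, adjusted p = 0.046) and Mllt10 in ATlo (-0.48 ± 0.12, adjusted p = 0.0039), by the authors' deposited table, where 1.91% and 1.98% of all genes were lower. By edgeR 0 of the 22 were called in any comparison. At an unadjusted p below 0.05 it had 7, 5 and 5 in AThi against ATlo, AThi against young and ATlo against young. The share of all genes at that unadjusted cut was not computed, so these counts cannot be read as an excess. The median log2 fold change of the list was 0.11 in AThi against ATlo, -0.05 in AThi against young and -0.16 in ATlo against young, beside 0.03, -0.00074 and 0.0061 over all genes.

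Of 29 Polycomb genes, all measured, 4 were higher and 2 lower in AThi against ATlo, 1 higher and 2 lower in AThi against young, and 0 higher and 1 lower (Phc3) in ATlo against young, by the authors' deposited table. The shares of all genes called higher and lower there were 3.47% and 4.43%, 3.13% and 1.91%, and 2.37% and 1.98%. The paralogous H3K27 methyltransferases moved in opposite directions in AThi. Ezh1 was at 2393 and 1769.9 normalized counts in young, while AThi had 4447, 3465 and 3586 and ATlo 1297, 1889 and 1528, with a log2 fold change of 1.29 ± 0.20 (adjusted p = 1e-08) against ATlo and 0.88 ± 0.22 (adjusted p = 0.0026) against young in the authors' deposited table. Ezh2, the form of dividing cells, was at 3744 and 3807 in young, with 1707, 1898 and 2683 in AThi and 2876, 3136 and 3255 in ATlo. Ezh2 was lower in AThi in the authors' deposited table, by -0.56 ± 0.18 (log2, adjusted p = 0.031) against ATlo and -0.85 ± 0.20 (adjusted p = 0.0014) against young. Phc3 and Phf19, the other leading members, were at 0.56 ± 0.13 (adjusted p = 0.00044) and -1.55 ± 0.37 (adjusted p = 0.0013) in AThi against ATlo in the authors' deposited table. Phf19 was also lower in AThi against young (-1.47 ± 0.42, adjusted p = 0.013) and Phc3 in ATlo against young (-0.63 ± 0.14, adjusted p = 0.00057) in that table of the authors. By edgeR 1 (Ezh1), 0 and 0 of the 29 were called in AThi against ATlo, AThi against young and ATlo against young, beside 1.41%, 1.21% and 0.653% of all genes. At an unadjusted p below 0.05 edgeR had 9, 5 and 5, and the share of all genes at that cut was not computed. The list's median log2 fold change was 0.04, -0.11 and -0.19 in the same order, beside 0.03, -0.00074 and 0.0061 over all genes.

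Genes linked to HOXA9, MEIS1 or PBX in blood cells were counted in the same way. Of 19 measured of 20, 5 were higher and 1 lower in AThi against ATlo, 4 higher and 2 lower in AThi against young, and 3 higher and 2 lower in ATlo against young, by the authors' deposited table. Over all genes 3.47% and 4.43%, 3.13% and 1.91%, and 2.37% and 1.98% were called higher and lower. Pbxip1, which encodes a PBX-interacting protein, was at 1801 and 1459 normalized counts in young, while AThi had 2627, 2447 and 2309 and ATlo 1622, 1605 and 1241. All 3 AThi libraries were the highest, and in the authors' deposited table the log2 fold change was 0.72 ± 0.17 (adjusted p = 0.00081) against ATlo and 0.59 ± 0.19 (adjusted p = 0.038) against young.

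Epas1, encoding HIF2-alpha, was at 154 and 122 normalized counts in young, while AThi had 691, 1013 and 574 and ATlo 541, 599 and 432. Its log2 fold change against young was 2.46 ± 0.33 (adjusted p = 2.6e-11) in AThi and 1.92 ± 0.33 (adjusted p = 1.1e-06) in ATlo in the authors' deposited table. Flt3, a receptor kinase of early progenitors, was at 1150.0 and 862 in young and 319 to 541 in old libraries, and its log2 fold change against young in the authors' deposited table was -1.43 ± 0.32 (adjusted p = 6e-04) in AThi and -1.12 ± 0.32 (adjusted p = 0.018) in ATlo. Bcl2, a survival gene, rose in both fractions (0.73 ± 0.18, adjusted p = 0.0017, and 0.89 ± 0.18, adjusted p = 5.4e-05), by the authors' deposited table. Cdk6, a G1 kinase, was higher in ATlo against young (0.96 ± 0.20, adjusted p = 0.00014) by the authors' deposited table. It was the gene called lower in AThi against ATlo there (-0.59 ± 0.18, adjusted p = 0.018). Cd34 was lower in AThi against young (-0.93 ± 0.22, adjusted p = 0.001), by the authors' deposited table. Also called in AThi against ATlo were Hlf (0.52 ± 0.12, adjusted p = 3e-04), Mecom (0.59 ± 0.16, adjusted p = 0.0053) and Nkx2-3 (0.72 ± 0.21, adjusted p = 0.011) in the authors' deposited table. There Hlf was lower in ATlo against young (-0.60 ± 0.13, adjusted p = 0.00033) and was not called in AThi against young. By edgeR 1 of the 19 was called in each comparison, Hlf between the fractions and Epas1 in both against young, beside 1.41%, 1.21% and 0.653% of all genes. The list's median log2 fold change was 0.18, 0.21 and -0.13 in AThi against ATlo, AThi against young and ATlo against young, beside 0.03, -0.00074 and 0.0061 over all genes.

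Other homeobox genes and the neighbours of the clusters were looked up in the same way. Of 11 other TALE genes, 3 were measured (Pknox1, Tgif1 and Tgif2), and 0 were called in any of the 3 comparisons of the authors' deposited table or by edgeR, with 0 at an unadjusted p below 0.05, while 0 of 5 caudal and Evx genes had a row. Of 15 genes beside the clusters, 11 were measured. By the authors' deposited table Cbx1, beside HOXB, and Cbx5, beside HOXC, both heterochromatin protein 1 genes, were lower in AThi against ATlo (-0.57 ± 0.15, adjusted p = 0.0041, and -0.58 ± 0.10, adjusted p = 2.5e-06). Cbx5 was also lower in AThi against young (-0.45 ± 0.12, adjusted p = 0.0038) in the authors' deposited table, beside 1.91% of all genes. The edgeR test called Cbx5 in AThi against ATlo, beside 1.41% of all genes, and neither gene otherwise. In ATlo against young 0 of the 11 were called by either test, with 0 at an unadjusted p below 0.05.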

How the data were processed

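Bulk RNA-seq of mouse HSCs gave 8 libraries in 3 groups (2 young, 3 AThi, 3 ATlo). Per the labels' protocols, each RNA came from some 10000 sorted HSCs, passed an integrity number of 9.0 and was collected on 1 of 2 sort days. Sequencing was paired, 50 bases an end, aiming at 40 M reads. No label ties a library to its sort day. The submitters' processing notes name FastQC, MultiQC, STAR, featureCounts, DESeq2 and GRCm38. Versions, annotation and strand were not given in the sources used here.

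For each of 3 contrasts, the authors deposited 19909 genes with log2 fold change, SE, Wald statistic (a score), p-value and adjusted p-value. The same tables of the authors hold a normalized signal per library, here called normalized counts, which per the file headers carries the group and a tag. Tags are not the labels' replicate numbers, so columns were matched to groups only. The deposited signal turned out to be reads over a library factor: whole reads were recovered for 100% of values within 0.01 of a read. No 2 libraries of a group agreed within sampling noise. A second deposited table of the authors lists upstream regulators with an activation score and a p-value of overlap.

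The main test is the authors' deposited DESeq2 Wald test over all 8 libraries without a term for the mouse, called at an adjusted p below 0.05. Recovered reads were refitted with DESeq2 1.42.0, edgeR 4.0.16 (quasi-likelihood) and limma 3.58.1 in R 4.3.3. The fits were tested on simulated data. Tables and figures used Python 3.11.15, pandas 2.3.3, numpy 2.4.6, scipy 1.17.1 and matplotlib 3.10.9. Alternatives were TMM factors, filters at a mean of 10 or none, limma on log2(normalized count + 1 or 5), each library left out, the libraries tagged 12 left out, and the tag as a block. The labels state that AThi and ATlo come from the same old mice. Shared header tags were taken as the pairing, which no label states. Same-tag deviations correlated at 0.058, 0.047 and 0.186 for O10, O11 and O12, and other tags at -0.107 to 0.045. The O11 value lay close to the highest value of other tags, so these correlations do not settle the pairing.

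Coordinates and exon sharing are from GENCODE vM21 (GRCm38), and promoter sequences from RefSeq (GRCm38.p6). Exon sharing was sought only with genes that have a row. The members and gene lists were chosen with earlier results of these data known. The rule for named genes was every called coding member, the highest gene of each cluster, the MEIS and PBX members, Hoxa9, Hoxb4 and Hoxb5, and up to 4 called genes of each list and contrast. Other members are given by range. Hoxb3, Hoxb2 and a few HOXA genes were named beyond the rule so that every member has a value. Cdk6 in AThi against ATlo was also named beyond the rule. A further gene is not reported here, and counts of members leave it out. Protein sequences were not used here.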

Additional observations from a re-analysis of the deposited data

How the results depend on the processing

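Counts of called members depended on the tool. In AThi against ATlo, 1 member was called in the authors' deposited table, 2 with TMM factors (Hoxaas3 added), 0 with edgeR, 0 with limma at a pseudocount of 1 or 5, and 0 without the libraries tagged 12. At an unadjusted p below 0.05 edgeR and limma each had 4 and the refit without those libraries 5. The share of all genes at that unadjusted cut was not computed, so such counts cannot be read as an excess. The replicate block gave 3 with DESeq2 (Hoxa3 and Meis2 added) and 0 with edgeR (5 at an unadjusted p below 0.05), and leaving out 1 library gave 0 to 2. In AThi against young, 5 members were called, 1 with edgeR, 2 and 3 with limma at a pseudocount of 1 and 5, and 3 without the libraries tagged 12 (Hoxb6 and Hoxb9 lost); leaving out 1 library gave 3 to 6, with 3 (the same genes lost) without young D12. In ATlo against young, 4 were called, 1 with edgeR, and 2 and 1 with limma; leaving out 1 library gave 3 to 5. Over all genes the deposited calls were 1414, 961 and 811 in AThi against ATlo, AThi against young and ATlo against young, and edgeR called 280, 240 and 130. DESeq2 with the block called 1954, and ATlo against young had 362 without young D11. The 10 called results had 162 alternative values, of which 38 lost the call and 0 changed sign. Over all 15 named genes in 3 comparisons, most of them not called, 702 of 750 values stayed on their side of the threshold and 10 gained a call. The 2 young libraries, and 2 and 0 reads of Hoxb7 in them, limit the fold changes against young. The cause of the differences between tools was not tested.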

Other observations

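The authors' deposited table of upstream regulators for AThi against ATlo lists 7 HOX proteins and no MEIS or PBX protein. HOXA10 carries an activation score of -2.236 and the state inhibited, with an overlap p-value of 0.308 over 5 targets (ALPL, CLDN5, FN1, KCNAB1 and XDH). HOXB4 has a score of 0 (p = 0.000312, 4 targets) and HOXD10 one of 1.342 (p = 0.0126, 5 targets) in the authors' deposited table. HOXD8, HOXD9 and HOXD12 have no score and are listed on the same 3 targets, CCNA2, CCNB1 and CDK1, with p-values of 0.00155, 0.000873 and 7.85e-05 in the authors' deposited table. HOXA4, listed on BIRC5 and CCNE1, has an overlap p-value of 0.0313 in the authors' deposited table. No HOXD gene had a row among the members, and the mRNAs of Hoxa10, Hoxa4 and Hoxb4 were not called in that comparison.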
